A study of Mus musculus with 13 samples.

Results

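Reactive astrocyte genes are transcripts that astrocytes raise when the brain is injured or inflamed. They were followed here in bulk RNA-seq of mouse brain hemispheres from the cuprizone model, in which a copper chelator in the diet kills oligodendrocytes and removes myelin. The 10 genes were the intermediate filament genes Gfap, Vim, Nes and Synm, the secreted factors Lcn2, Serpina3n and Timp1, the receptors Osmr and Cd44, and the metalloreductase Steap4. They were found by gene symbol among the 55401 annotated genes of the count table, each symbol on 1 row, and 9 of the 10 passed a filter on low counts that kept 14985 genes for testing. Timp1 did not pass it. Lcn2 passed only through the CPZ libraries, where it was high, so the 9 are not a neutral sample of reactive genes. Some genes of the lists below, such as Cxcl10, Tgm1, Bcl3, Cntf and Cdk1, also passed only with the CPZ libraries. Counts over the tested genes of those lists are therefore not neutral either.

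All mice were male. The cuprizone group (CPZ, 4 libraries) was fed 0.3% cuprizone for 4 weeks and collected then. The recovery group (RCV, 4 libraries) had the same 4 weeks of cuprizone followed by 2 weeks of control diet, and the control group (CTL, 5 libraries) ate control diet for 6 weeks. The labels give the mice as 6 to 8 weeks old, and the study's methods add a C57BL/6J background, an age somewhat above that of the labels and perfusion with saline before dissection. CPZ was collected at week 4 and the other 2 groups at week 6, so feeding and time of collection cannot be told apart in CPZ against CTL or CPZ against RCV. The labels state 4 control, 3 cuprizone and 3 recovery mice, fewer than the libraries, and do not tie libraries to mice, whereas a figure legend of the study counts as many samples per group as there are libraries. The p-values therefore measure the spread between these libraries, which may in part be technical. The libraries held 4605100 to 8197289 estimated counts each, mitochondrial genes took 3.76 to 5.07% of them, and the ranges of both overlapped between the groups. Median totals were 6545158 in CTL, 7468880 in CPZ and 5783463 in RCV, so raw counts of scarce genes were not taken at equal depth. Genes detected numbered 21270 to 21615 in CPZ, above CTL (20321 to 21113) and RCV (20011 to 21093).

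Astrocytes carry nutrients and clear glutamate and potassium around neurons, and their cytoskeleton rests on intermediate filaments built from Gfap, Vim, Nes and Synm subunits. After demyelination they enlarge, fill with Gfap filaments and secrete acute-phase proteins. One well-known route to this state runs through cytokines of the interleukin-6 family, which bind paired receptors such as Osmr and the shared subunit gp130 (Il6st) and activate JAK kinases and the transcription factor Stat3. None of these transcripts belongs to astrocytes alone: Vim and Cd44 are also made by microglia, vessel cells and progenitors, and Lcn2 is abundant in neutrophils.

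Because Stat3, C/EBP and AP-1 factors are known regulators of acute-phase and gliosis genes, the promoters of the members were searched for their short motifs. RefSeq gave 1 window for each of the 10 genes, 250 bases before to 50 bases after the start of transcription, on build GRCm38.p6. The STAT motif TTCNNNGAA was in 2 of the 10 windows, Gfap and Steap4, against 8.3% of all 32851 windows. The C/EBP motif TTGCNNAA, with its reverse complement TTNNGCAA, was in 2, Lcn2 and Steap4, against 10.8%. The AP-1 motif TGANTCA was in 1, Osmr, against 7.81%. Both strands were searched, and no 2 matches overlapped. The 4 windows with a match are shown with the matched letters in capitals, since they include the gene that stayed highest in recovery (Gfap), the one with the steepest rise (Lcn2), the receptor (Osmr) and the one that did not pass the test (Steap4).
Gfap, chr11:102897151-102897450, minus strand: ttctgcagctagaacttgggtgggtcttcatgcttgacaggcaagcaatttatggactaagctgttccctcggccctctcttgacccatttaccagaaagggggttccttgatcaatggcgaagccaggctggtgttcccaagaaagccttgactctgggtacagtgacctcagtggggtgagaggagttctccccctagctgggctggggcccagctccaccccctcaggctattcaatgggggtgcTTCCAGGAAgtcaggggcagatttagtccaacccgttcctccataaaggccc
Lcn2, chr2:32387690-32387989, minus strand: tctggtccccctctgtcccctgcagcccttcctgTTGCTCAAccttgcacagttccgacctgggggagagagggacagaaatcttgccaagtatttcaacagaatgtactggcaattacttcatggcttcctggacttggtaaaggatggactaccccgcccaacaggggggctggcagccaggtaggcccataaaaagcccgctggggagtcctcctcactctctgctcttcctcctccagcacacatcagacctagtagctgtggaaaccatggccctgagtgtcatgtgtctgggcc
Osmr, chr15:6874264-6874563, minus strand: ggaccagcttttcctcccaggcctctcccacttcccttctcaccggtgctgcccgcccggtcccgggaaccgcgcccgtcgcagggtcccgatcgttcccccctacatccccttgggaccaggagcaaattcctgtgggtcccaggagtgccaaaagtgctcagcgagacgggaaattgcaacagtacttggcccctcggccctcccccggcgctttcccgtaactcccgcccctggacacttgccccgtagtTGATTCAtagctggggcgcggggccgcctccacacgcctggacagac
Steap4, chr5:7960222-7960521, plus strand: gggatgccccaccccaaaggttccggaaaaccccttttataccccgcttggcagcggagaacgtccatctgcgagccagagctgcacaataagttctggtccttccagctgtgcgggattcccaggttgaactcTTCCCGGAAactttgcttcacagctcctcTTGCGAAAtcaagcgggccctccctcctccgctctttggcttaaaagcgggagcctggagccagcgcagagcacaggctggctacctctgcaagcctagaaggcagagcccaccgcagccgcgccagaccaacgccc
The STAT match of Gfap spanned the start of transcription itself, from 2 bases before it to base 7 after it. In Steap4 the STAT match began 116 bases and the C/EBP match 87 bases before the start. The C/EBP match of Lcn2 began 216 bases before the start. Windows without a match, such as those of Vim, Nes and Serpina3n, lack only these letters in this stretch. Steap4 held the most matches of the 10 and was not called in any of the contrasts described next.

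At the end of cuprizone feeding most of these genes were several-fold higher than in control brain. With the edgeR quasi-likelihood test and Benjamini-Hochberg adjustment over all 14985 genes, 7 of the 9 tested rose in CPZ against CTL and Synm fell, beside 10.2% of all genes called in either direction (7.66% higher, 2.50% lower). For those 7 genes every CPZ library lay above every CTL library, and for Synm every CPZ library lay below. Over all genes, libraries were apart in the same way for 8.25% higher and 4.86% lower, 13.1% in all. In bulk tissue, more cells of a type and more RNA per cell cannot be told apart. The median log2 fold change was 2.43 for the 9 and -0.02 for all genes tested. By DESeq2 and by limma-voom 8 of the 9 were called, as at an unadjusted p under 0.05 (all genes 11.0%, 10.3% and 22.1%).

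After 2 weeks of recovery, Gfap and Serpina3n were the 2 genes called against CTL by edgeR, both higher, beside 0.374% of all genes (0.360% higher, 0.0133% lower). For 5 genes, Gfap, Vim, Lcn2, Serpina3n and Osmr, every RCV library lay above every CTL library, beside 2.21% of all genes (2.90% in either direction, 0.687% lower). DESeq2 called those 5 (0.874% of all genes) and limma-voom 2 (0.107%), and 6 had an unadjusted p under 0.05 in edgeR (6.20%). In CPZ against RCV, 6 genes, Gfap, Vim, Nes, Lcn2, Osmr and Cd44, were higher and Synm was lower, beside 7.01% of all genes (5.13% higher, 1.88% lower). The same 6 had no overlap of libraries, all higher in CPZ, beside 8.26% of all genes higher and 4.93% lower (13.2% in all). DESeq2 called 7 (7.98% of all genes), limma-voom 6 (6.69%), and 8 had an unadjusted p under 0.05 (19.1%). CPZ against CTL and RCV against CTL share the CTL libraries, so their values are set side by side and not compared with each other. The direct contrast of CPZ and RCV gives the difference between those groups.

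**Figure D1:**
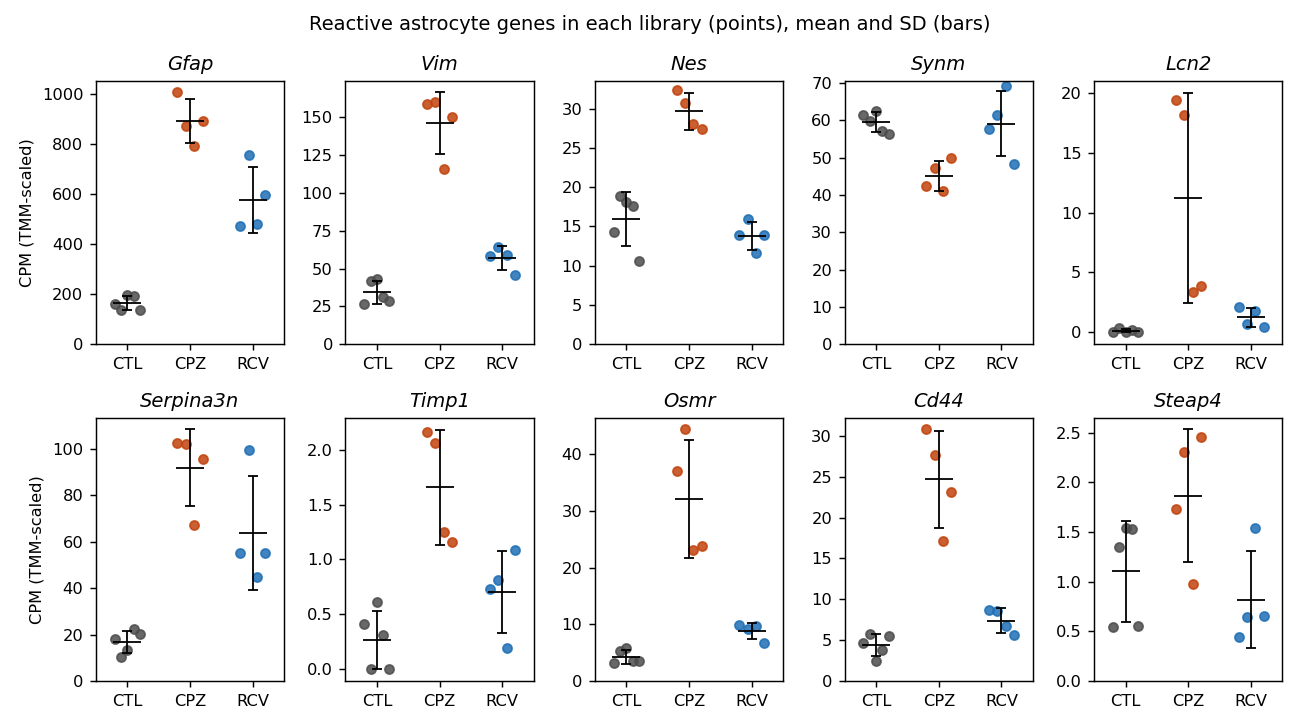
CPM (scaled by TMM; linear axes that include 0, each gene with its own) of the 10 reactive astrocyte genes in each library of CTL (n = 5), CPZ (n = 4) and RCV (n = 4), with the mean and SD as black bars. Gfap and Serpina3n keep most of their height in RCV, Vim, Osmr and Cd44 sit close to CTL in RCV, and Synm is lower in CPZ.

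Gfap, the main filament protein of mature astrocytes, was the most abundant of the 10 in every group. Its CPM, read counts scaled to library size by the TMM method, were 161, 138, 195, 194 and 138 in CTL replicates 1 to 5. They were 1007, 871, 792 and 891 in CPZ replicates 1 to 4 and 473, 755, 481 and 594 in RCV replicates 1 to 4. The 3 groups did not overlap: the lowest RCV library was still above the highest CTL library by a wide margin, and the highest RCV library just below the lowest CPZ library. The log2 fold change was 2.43 ± 0.15 (SE) in CPZ against CTL (5.39-fold, adjusted p = 5.3e-07) and 1.80 ± 0.15 in RCV against CTL (3.48-fold, adjusted p = 0.00011). Gfap ranked 3 of 14985 by p in RCV against CTL. In CPZ against RCV the difference was 0.63 ± 0.16 (adjusted p = 0.028). This last call rests on the full set of libraries: it was lost without CPZ replicate 1, 2 or 4, or RCV replicate 1, 3 or 4, at log2 fold changes of 0.54 to 0.65.

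Vim encodes vimentin, the filament partner of Gfap in reactive and immature astrocytes. CPM were 26.4, 42.0, 42.9, 31.0 and 28.8 in CTL, 159, 160, 116 and 150 in CPZ, and 58.5, 64.5, 59.3 and 46.0 in RCV. All 4 RCV libraries lay above the CTL libraries, the nearest pair being 46.0 and 42.9, and all lay far below CPZ. Vim rose by 2.10 ± 0.15 (SE, log2) in CPZ against CTL (4.27-fold, adjusted p = 1.2e-06). In RCV against CTL it differed by 0.74 ± 0.16 (adjusted p = 0.077), which missed the threshold in edgeR and passed it in DESeq2 (adjusted p = 0.00080). In CPZ against RCV it was higher by 1.35 ± 0.16 (adjusted p = 0.00035).

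Nes encodes nestin, a large filament protein of neural stem cells and endothelium that astrocytes re-express on injury. CPM were 14.3, 18.9, 18.1, 17.6 and 10.6 in CTL, 32.4, 30.8, 28.0 and 27.4 in CPZ, and 13.9, 15.9, 11.6 and 13.9 in RCV. CPZ stood clear of both other groups, and the RCV libraries fell inside the CTL range. The rise in CPZ against CTL was 0.89 ± 0.14 (SE, log2; adjusted p = 0.00025) and in CPZ against RCV 1.10 ± 0.15 (adjusted p = 0.00042). RCV and CTL differed by -0.21 ± 0.15 (95% interval -0.50 to 0.09).

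Synm encodes synemin, which cannot form filaments alone and links those of vimentin and other subunits to the cell's attachment sites. It moved the other way. CPM were 61.4, 59.7, 62.6, 57.2 and 56.3 in CTL, 42.4, 47.2, 41.1 and 49.8 in CPZ, and 57.6, 61.4, 69.1 and 48.1 in RCV. CPZ lay below all of CTL, while RCV replicate 4 lay inside the CPZ range. Synm fell by 0.40 on the log2 scale (SE 0.09, adjusted p = 0.0073) in CPZ against CTL. The difference of -0.39 ± 0.10 in CPZ against RCV (adjusted p = 0.019) was lost without CPZ replicate 1 or 3 or RCV replicate 3, and on the TPM scale. RCV against CTL was -0.008 ± 0.089. Synm overlaps Ttc23 and a minor transcript on the opposite strand, with 274 and 19 counts over all libraries against 4655 for Synm.

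Of the 10 other intermediate filament genes that passed the filter (11 listed), 1 was called in CPZ against CTL. This was Lmnb1, a nuclear lamin, at 0.69 ± 0.16 (SE, log2; adjusted p = 0.0073), and none was called in RCV against CTL, where edgeR also gave none at an unadjusted p under 0.05 and DESeq2 and limma-voom none. Neurofilament and keratin genes were among the 9 not called in CPZ against CTL. Among 5 partners of filaments, Hspb6, a small heat shock protein, rose by 0.92 ± 0.21 (adjusted p = 0.0072), and Plec and Dst, the linkers plectin and dystonin, were at -0.15 ± 0.07 (adjusted p = 0.24) and 0.02 ± 0.07 (adjusted p = 0.93). Cryab, a chaperone shared by astrocytes and oligodendrocytes, was at -0.42 ± 0.17 (adjusted p = 0.15), and Hspb8 at 0.48 ± 0.20 (adjusted p = 0.18).

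Lcn2 encodes lipocalin-2, a secreted protein that binds bacterial iron carriers and is made by inflamed astrocytes. It was close to the floor of detection in control brain, with 0, 2, 0, 1 and 0 counts in CTL replicates 1 to 5. The CPZ libraries held 135, 150, 24 and 30 counts and the RCV libraries 14, 4, 9 and 2. CPZ split into a pair of high and a pair of lower libraries, all above every RCV library, and RCV replicate 4 had no more counts than CTL replicate 2, although its CPM of 0.434 was above the highest CTL value of 0.300. With 339 counts in CPZ and 3 in CTL, the pooled ratio was 122 with a 95% counting interval of 41.4 to 594.6, and for RCV against CTL it was 13.8 (4.27 to 70.7). These intervals cover counting error only. The edgeR test called Lcn2 in CPZ against CTL (adjusted p = 0.00030) and in CPZ against RCV, at a log2 fold change of 3.14 ± 0.68 (SE; adjusted p = 0.014), though limma-voom did not call the latter (adjusted p = 0.11). RCV against CTL was not called by edgeR (adjusted p = 0.61) and was by DESeq2 (adjusted p = 0.045). Neutrophils can also make Lcn2. The summed CPM of 8 neutrophil markers ranged from 0 to 0.646 in CPZ, and 5 of them (Ly6g, Camp, Ngp, Ltf and Retnlg) had no count in any CPZ library. In CTL and RCV the neutrophil sums reached 11.7 and 16.6. Their part in the Lcn2 differences was not tested.

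Of the receptors of lipocalin-2, Slc22a17 fell by 0.25 on the log2 scale (SE 0.07, adjusted p = 0.030) in CPZ against CTL. Lrp2 (megalin) was at 1.11 ± 0.36 (adjusted p = 0.064) and Mc4r at -0.43 ± 0.35 (adjusted p = 0.55). The CPZ libraries of Lrp2, at 3.36 to 5.91 CPM, all lay above those of CTL, at 1.10 to 2.92, beside 8.25% of all genes. DESeq2 and limma-voom each called 2 of these 3 receptor genes in that contrast, and edgeR 1.

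Serpina3n encodes a secreted serine protease inhibitor of the acute phase. CPM were 17.9, 10.5, 13.5, 22.3 and 20.2 in CTL, 103, 102, 67.4 and 95.7 in CPZ, and 55.1, 99.8, 44.8 and 55.3 in RCV. Every RCV library was above every CTL library, and RCV replicate 2 reached the height of CPZ. Serpina3n rose by 2.45 ± 0.26 (SE, log2) in CPZ against CTL (adjusted p = 5.5e-05) and by 1.93 ± 0.27 in RCV against CTL (3.80-fold, adjusted p = 0.0090). CPZ and RCV differed by 0.52 ± 0.26 (95% interval 0.02 to 1.02, edgeR unadjusted p = 0.064, adjusted p = 0.30). The interval uses a normal quantile and is narrower than the test implies, so its exclusion of 0 is not a call. Without RCV replicate 2 that difference was 0.83 (adjusted p = 0.035), so 1 library decided this call. The gene lies among close copies on chromosome 12. None of its 10 listed paralogs passed the filter, and their summed CPM was 0 to 3.66 per library. How reads that match several of these copies were divided can shift the Serpina3n value, which is uncertain to that extent.

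Timp1, an inhibitor of matrix metalloproteases, had 3, 0, 4, 2 and 0 counts in CTL, 15, 17, 9 and 9 in CPZ and 5, 5, 1 and 5 in RCV. Every CPZ library had more counts than any other library. Mean CPM were 0.266 ± 0.267 (SD, n = 5), 1.66 ± 0.53 (n = 4) and 0.705 ± 0.373 (n = 4). By a two-sided exact permutation test of mean CPM, p was 0.016 for CPZ against CTL and 0.029 for CPZ against RCV, each the smallest the group sizes allow (0.043 for both after Benjamini-Hochberg adjustment over the 3 contrasts), and 0.095 for RCV against CTL. When the filter on counts was dropped so that Timp1 entered the edgeR fit, CPZ against CTL was called (adjusted p = 0.0023) and CPZ against RCV was not, at a log2 fold change of 1.25 (adjusted p = 0.30). The pooled count ratio of CPZ to CTL was 6.00 (95% counting interval 2.92 to 13.9). Timp1 lies inside Syn1, a neuronal gene on the opposite strand with 42804 counts over all libraries. Whether the counting used strand is not given in the sources used here, so reads of these 2 genes may not be fully separated. Of the 13 tested genes among the other Timp, Mmp, Adam and Adamts genes, 4 rose and 1 fell in CPZ against CTL. Mmp19 rose most, by 1.81 ± 0.50 (SE, log2; adjusted p = 0.027), Adam10, a sheddase, least, by 0.29 ± 0.06 (adjusted p = 0.0042), and Adamts4, an enzyme of oligodendrocytes, fell by 1.08 (SE 0.20, adjusted p = 0.0021).

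Osmr encodes the receptor subunit that pairs with gp130 to bind oncostatin M. CPM were 3.13, 5.25, 5.84, 3.52 and 3.48 in CTL, 37.0, 44.4, 23.03 and 23.8 in CPZ, and 9.82, 9.07, 9.62 and 6.72 in RCV. The groups did not overlap, with RCV close above CTL. Osmr rose by 2.91 ± 0.23 (SE, log2) in CPZ against CTL (7.53-fold, adjusted p = 1.3e-06) and was higher by 1.85 ± 0.23 in CPZ against RCV (adjusted p = 0.00035). RCV against CTL, at 1.06 ± 0.27, missed the threshold in edgeR (adjusted p = 0.15) and limma-voom (adjusted p = 0.54) and passed it in DESeq2 (adjusted p = 0.012).

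Cd44 encodes the main surface receptor for hyaluronan and also binds osteopontin. CPM were 4.62, 5.70, 2.46, 3.82 and 5.50 in CTL, 30.8, 27.7, 17.2 and 23.1 in CPZ, and 8.65, 8.59, 6.74 and 5.64 in RCV. CPZ was apart from both groups, and the lowest RCV library fell just inside the CTL range. Cd44 rose by 2.48 ± 0.21 (SE, log2) in CPZ against CTL (5.59-fold, adjusted p = 1.5e-06) and was higher by 1.72 ± 0.22 in CPZ against RCV (adjusted p = 0.00035). RCV against CTL was 0.77 ± 0.24 (adjusted p = 0.36). Of its ligands, linkers and hyaluronan enzymes, 8 of 11 were tested and 3 rose in CPZ against CTL: Spp1 (osteopontin) by 3.77 ± 0.45 (adjusted p = 0.00016), Msn (moesin, which ties Cd44 to actin) by 1.61 ± 0.14 (adjusted p = 2.0e-06) and Ezr (ezrin) by 0.51 ± 0.13 (adjusted p = 0.014). Rdx (radixin), the remaining protein of that linker family, was at -0.005 ± 0.073 (adjusted p = 0.98). These genes are made by several cell types, microglia included.

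Steap4, a metalloreductase that reduces iron and copper ions, was scarce, with 4, 9, 10, 10 and 3 counts in CTL, 12, 19, 7 and 19 in CPZ and 3, 4, 8 and 3 in RCV. The 3 groups overlapped. Log2 fold changes were 0.75 ± 0.40 (SE; adjusted p = 0.30) in CPZ against CTL, -0.46 ± 0.49 (adjusted p = 0.98) in RCV against CTL and 1.22 ± 0.47 (adjusted p = 0.15) in CPZ against RCV. At this depth the 95% interval in CPZ against CTL, -0.04 to 1.54, left room for no difference and for one larger than that of Nes (0.89). Its paralogs Steap1, Steap2 and Steap3 were not called by edgeR, DESeq2 or limma-voom in any contrast, and none had an unadjusted p under 0.05. In CPZ against CTL they were at 0.52 ± 0.59, 0.11 ± 0.17 and 0.04 ± 0.26.

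**Figure D2:**
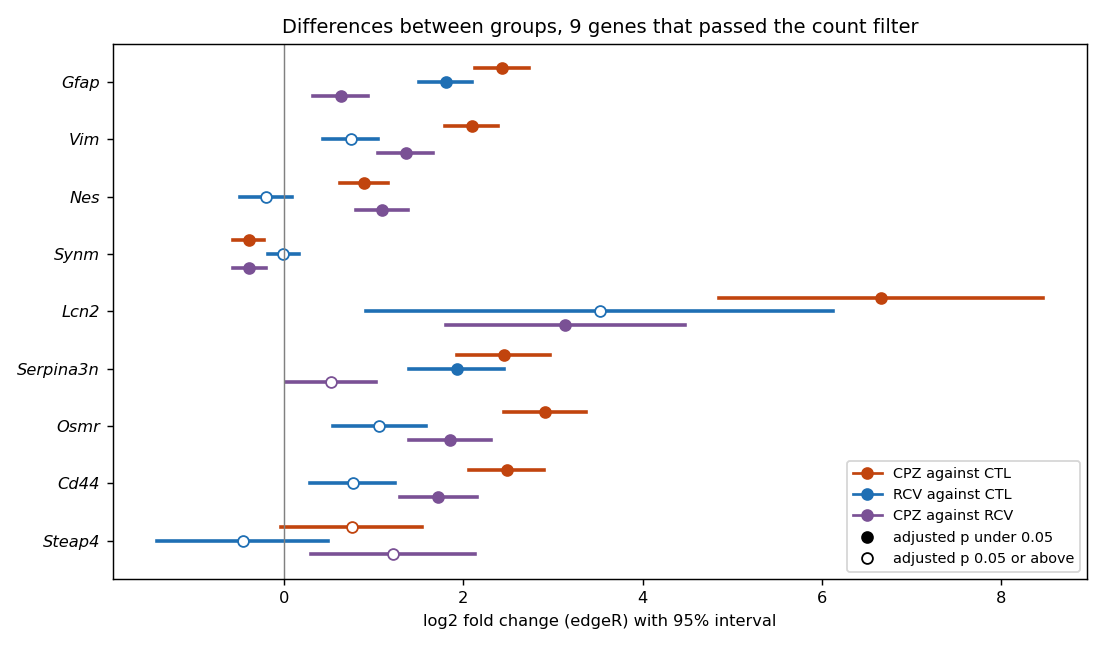
Log2 fold changes from edgeR (x axis) with 95% intervals for the 9 reactive astrocyte genes tested, in the 3 contrasts; filled points have an adjusted p under 0.05. Gfap and Serpina3n are filled for RCV against CTL, at 1.80 and 1.93, and Synm is the one gene left of 0 with a filled point, at -0.40 and -0.39.

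Levels of different genes were compared on the TPM scale, which divides by transcript length. In CTL the order by mean TPM was Gfap (135 ± 24, SD, n = 5), Vim (52.4 ± 13.5), Serpina3n (18.0 ± 5.3), Synm (17.5 ± 0.8), Nes (5.40 ± 1.11), Cd44 (2.47 ± 0.70), Osmr (1.83 ± 0.32), Timp1 (0.808), Steap4 (0.740) and Lcn2 (0.264). Serpina3n and Synm overlapped, as did Cd44 and Osmr, Osmr and Timp1, and the last 3. In CPZ, Lcn2 moved from last place to just below Serpina3n, at 30.3 ± 23.9 (n = 4), with a range of 9.04 to 52.1 that took in the ranges of Cd44, Synm and Osmr and most of that of Nes. Gfap (709 ± 71), Vim (211 ± 27) and Serpina3n (95.8 ± 17.2) kept the first 3 places without overlap. In RCV, Gfap was at 460 ± 107 (n = 4), and Vim (85.7 ± 22.6) and Serpina3n (66.6 ± 25.6) overlapped.

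Set against Gfap in the same library, the genes fell into different patterns. This ratio was chosen after the values were seen and is given without a test. The mean TPM ratio of Serpina3n to Gfap was 0.135 ± 0.041 (SD) in CTL, 0.135 ± 0.018 in CPZ and 0.142 ± 0.025 in RCV, and the 3 ranges overlapped. The ratio of Vim to Gfap was 0.263 to 0.630 in CTL, 0.276 to 0.332 in CPZ and 0.121 to 0.230 in RCV, so every RCV library lay below every other library. Osmr to Gfap behaved alike, at 0.0101 to 0.0177 in CTL, 0.0131 to 0.0241 in CPZ and 0.00572 to 0.0111 in RCV, with a small overlap of RCV and CTL. Cd44 to Gfap averaged 0.0194 in CTL, 0.0193 in CPZ and 0.00996 in RCV. The RCV range, 0.00651 to 0.0147, lay below that of CPZ, 0.0153 to 0.0228, and overlapped that of CTL, 0.00919 to 0.0268. For Synm the ratio was 0.109 to 0.163 in CTL, 0.0172 to 0.0217 in CPZ and 0.0299 to 0.0505 in RCV, with no overlap of groups.

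**Figure D3:**
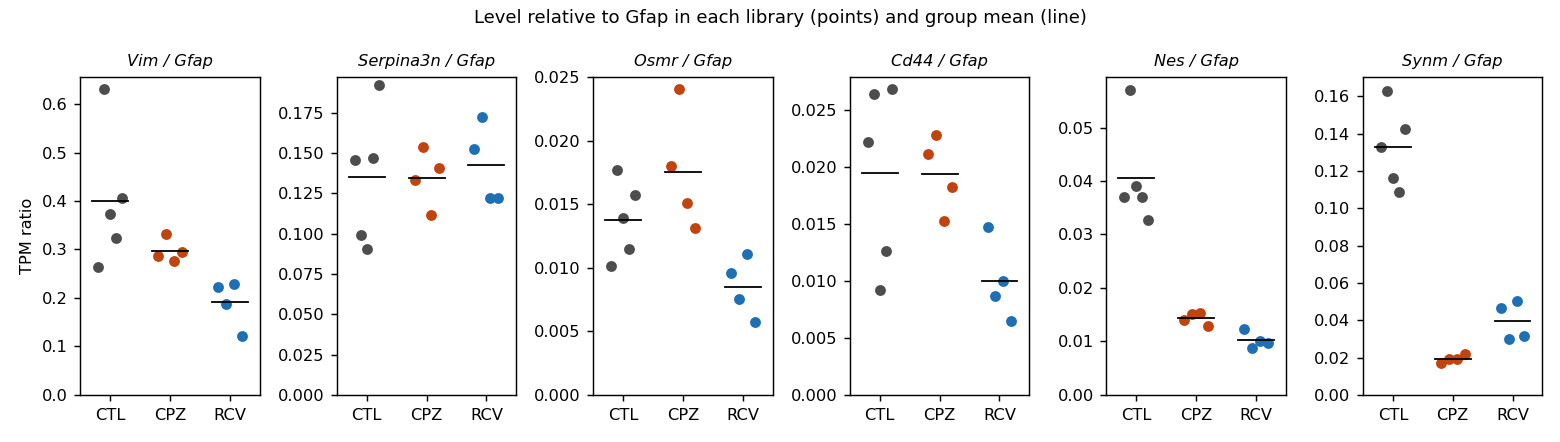
TPM of 6 reactive astrocyte genes divided by that of Gfap in the same library (y axes from 0, each with its own scale), for CTL (n = 5), CPZ (n = 4) and RCV (n = 4); lines are group means. Serpina3n keeps its ratio near 0.135 in CTL and CPZ and 0.142 in RCV, whereas Vim falls to 0.121 to 0.230 in RCV.

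Some libraries stood high or low in their group for several of the genes, and others were mixed. CPZ replicate 3 was the lowest of its group for 8 of the 10 genes, and CPZ replicate 1 the highest for 6. In RCV, replicate 2 was highest for 4 genes, Gfap and Serpina3n among them, and replicate 4 lowest for 5. RCV replicate 1 was highest for 3 and lowest for 2, and RCV replicate 3 highest for 2 and lowest for 3. In CTL, replicate 3 was highest for 6 and lowest or tied for lowest for 2. Without CPZ replicate 3, the counts called in CPZ against CTL stayed at 7 higher and 1 lower.

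The interleukin-6 family upstream of Stat3 was examined from lists of ligands, receptors and signalling genes. Of 7 ligands, 3 were tested, and Clcf1 and Cntf rose in CPZ against CTL, by 2.06 ± 0.39 (SE, log2; adjusted p = 0.0019) and 1.26 ± 0.28 (adjusted p = 0.0067). Ctf1 was at 0.25 ± 0.32 (adjusted p = 0.73). Osm, the ligand of Osmr, was scarce: 5 counts in all of CTL, 25 in CPZ and 0 in RCV. Il6 had 3, 1 and 0 counts, Lif 26, 60 and 13, and Il11 11, 4 and 7. No ligand was called in RCV against CTL or in CPZ against RCV by edgeR, DESeq2 or limma-voom; at an unadjusted p under 0.05 there were 0 and 1.

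Among the 5 receptor subunits listed beside Osmr, Il6ra rose by 1.22 ± 0.16 (SE, log2; adjusted p = 7.0e-05) in CPZ against CTL and Il6st, the shared gp130 subunit, by 0.27 ± 0.08 (adjusted p = 0.032). Lifr, Cntfr and Il11ra1, the subunits for LIF, CNTF and interleukin-11, were at -0.04 ± 0.08 (adjusted p = 0.86), -0.01 ± 0.08 (adjusted p = 0.96) and 0.10 ± 0.13 (adjusted p = 0.74). Osmr thus showed the largest difference of the 6 receptor genes in CPZ against CTL. Il6ra was also higher in CPZ against RCV, by 0.98 ± 0.17 (adjusted p = 0.0023), and is strongly made by microglia.

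Of 11 genes of the JAK-STAT step, 4 rose in CPZ against CTL. Stat3 rose by 0.50 ± 0.09 (SE, log2; adjusted p = 0.00073), with mean CPM of 54.3, 76.7 and 63.6 in CTL, CPZ and RCV. Socs3, a feedback inhibitor of the pathway, rose by 1.75 ± 0.28 (adjusted p = 0.00046). Bcl3 rose by 2.69 ± 0.47 (adjusted p = 0.00095) and Cebpd by 2.22 ± 0.39 (adjusted p = 0.0012). Pathway activity and the cells that made these transcripts were not tested. Jak1, Jak2 and Tyk2, the kinases, were at 0.05 ± 0.06 (adjusted p = 0.72), 0.05 ± 0.07 (adjusted p = 0.78) and 0.19 ± 0.09 (adjusted p = 0.23). Cebpb was at 0.65 ± 0.22 (adjusted p = 0.073) and Junb at 0.24 ± 0.38 (adjusted p = 0.79). Ptpn11 and Pias3, modulators of the pathway, were at -0.09 ± 0.06 (adjusted p = 0.45) and -0.02 ± 0.10 (adjusted p = 0.94). In RCV against CTL none of the 11 was called by edgeR, DESeq2 or limma-voom, with 4 at an unadjusted p under 0.05, and Stat3 was at 0.23 ± 0.09 (adjusted p = 0.57). In CPZ against RCV, Socs3 and Cebpd were higher, by 1.45 ± 0.30 (adjusted p = 0.0071) and 1.50 ± 0.40 (adjusted p = 0.034).

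**Figure D4:**
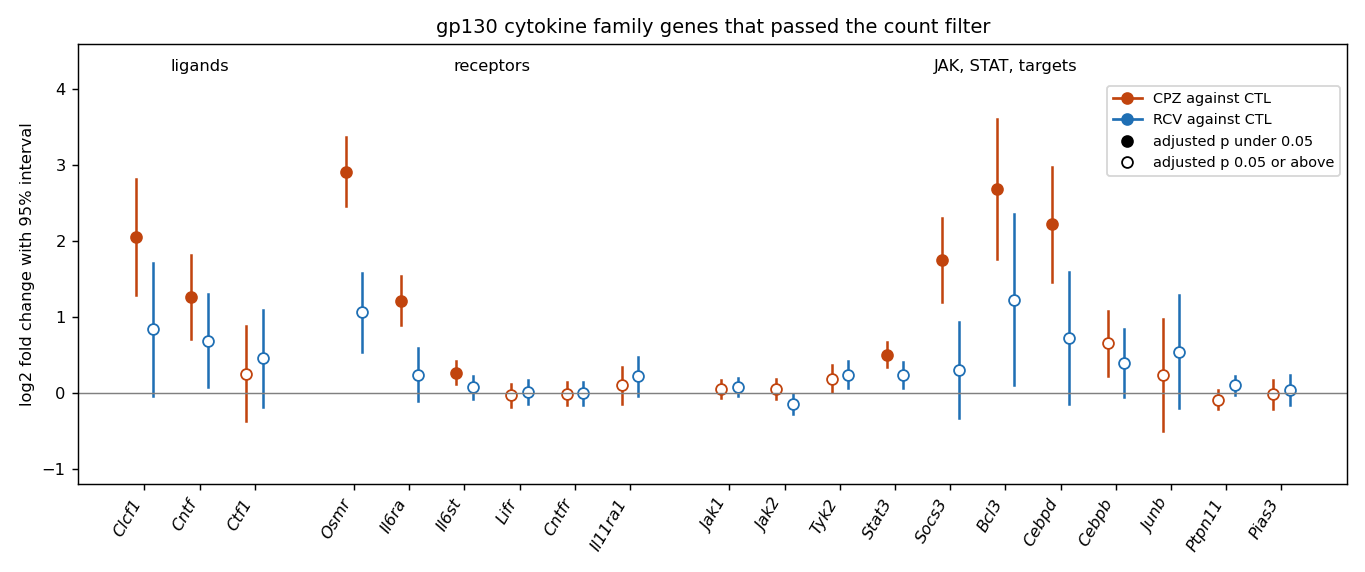
Log2 fold changes (y axis) with 95% intervals for ligands, receptors and signalling genes of the interleukin-6 family that passed the filter on low counts, in CPZ against CTL and RCV against CTL; filled points have an adjusted p under 0.05. Osmr, at 2.91, stands above the other receptors, and no point of RCV against CTL is filled.

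Further genes of the reactive state came from published groupings of astrocytes after inflammation or ischaemia. Of 5 other genes shared by both, 4 rose in CPZ against CTL: Cxcl10, a chemokine, by 4.19 ± 0.41 (SE, log2; adjusted p = 3.9e-06), S1pr3, a receptor for sphingosine-1-phosphate, by 1.66 ± 0.15 (adjusted p = 2.1e-06), Aspg by 1.54 ± 0.31 (adjusted p = 0.0028) and Cp (ceruloplasmin, a copper-carrying ferroxidase) by 0.71 ± 0.13 (adjusted p = 0.0018). Hspb1 was at -0.10 ± 0.22 (adjusted p = 0.85). None was called in RCV against CTL by edgeR or limma-voom, with 2 at an unadjusted p under 0.05, and 1 was by DESeq2. Cxcl10 differed most there, at a log2 fold change of 2.03, on 36 counts in RCV and 12 in CTL. Its RCV libraries, at 1.16 to 2.05 CPM, all lay above those of CTL, at 0 to 0.75. It was the 1 gene of the 5 apart in this way, beside 2.21% of all genes. The median over the 5 was -0.08. S1pr3 was at 10.3 ± 1.4 CPM (SD, n = 4) in RCV beside 10.9 ± 1.6 in CTL (n = 5).

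In the set named for neuroinflammation, 9 of 12 rose in CPZ against CTL, from Serping1, a complement inhibitor, by 0.76 ± 0.18 (SE, log2; adjusted p = 0.0092), to Psmb8, an immunoproteasome subunit, by 2.41 ± 0.24 (adjusted p = 4.4e-06). The median over the 12 was 1.35. H2-D1, an MHC class I heavy chain, and Ggta1, a glycosyltransferase, were the 2 called by edgeR in RCV against CTL. Their log2 fold changes there were 0.99 ± 0.17 (adjusted p = 0.022) and 1.01 ± 0.16 (adjusted p = 0.0088). In that contrast DESeq2 called 4 of the 12 and limma-voom 2, and 7 had an unadjusted p under 0.05 in edgeR. For 6 of the 12 every RCV library lay above every CTL library, beside 2.21% of all genes. The median over the 12 was 0.62, and C3, not called by edgeR, differed most, at 1.69. In the set named for ischaemia, 9 of 12 genes were tested and 5 rose in CPZ against CTL. Tgm1, a transglutaminase, had 5 counts in CTL, 415 in CPZ and 33 in RCV, and Cd109, a surface protein, rose least, by 1.04 ± 0.25 (adjusted p = 0.010). Cd14, a coreceptor for lipopolysaccharide, is also made by microglia. It was the 1 gene of that set called by edgeR in RCV against CTL, at 1.51 ± 0.28 (adjusted p = 0.028). In that contrast DESeq2 called 2 genes of the set and limma-voom 0. Many genes of both sets are made by microglia and vessels as well.

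Markers of some other cell types also differed between the groups, and their part in the differences of the reactive genes was not tested. The summed CPM of 12 microglia markers was 402.7 to 482.7 in CTL, 1396 to 2930 in CPZ and 612 to 840 in RCV. All 12 rose in CPZ against CTL. In RCV against CTL, 1 of 12 was called by edgeR, 1 by limma-voom and 7 by DESeq2, 9 had an unadjusted p under 0.05 in edgeR, and for 10 every RCV library lay above every CTL library. In CPZ against CTL, the defining microglia gene with the smallest rise was P2ry12, at 0.97 (log2). The 16 markers of astrocyte identity gave sums of 6353 to 7057 in CTL, 6363 to 7395 in CPZ and 6862 to 7839 in RCV, and the 3 ranges overlapped. Of these 16, 5 rose and 1 fell in CPZ against CTL. Aqp4, the water channel of astrocyte endfeet, rose most among those called, by 0.55 ± 0.09 (SE; adjusted p = 0.00036). It was also the 1 marker called by edgeR in RCV against CTL, at 0.44 ± 0.09 (adjusted p = 0.038). In RCV against CTL, DESeq2 called 1 of the 16 and limma-voom 0. In CPZ against CTL, Glul (glutamine synthetase) fell by 0.24 (SE 0.07, adjusted p = 0.029), the smallest of the 6 changes.

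Oligodendrocyte markers fell in 9 of 9 cases in CPZ against CTL. Endothelial (8 tested), mural (6), fibroblast (6), ependymal (6), choroid plexus (6) and neuron markers (8) had none called by edgeR, DESeq2 or limma-voom in that contrast, with 1 endothelial and 1 mural gene at an unadjusted p under 0.05. Choroid plexus sums ran from 16.9 to 2777 CPM over the 13 libraries and overlapped between the groups. Of 5 tested genes of progenitors and dividing cells, 3 rose in CPZ against CTL, all of them genes of the cell cycle: Cdk1 by 3.03 ± 0.34 (adjusted p = 1.1e-05), Mki67 by 2.98 ± 0.36 (adjusted p = 5.7e-05) and Top2a by 2.64 ± 0.37 (adjusted p = 0.00016). Dcx and Sox11, of immature neurons, were at -0.06 ± 0.10 (adjusted p = 0.80) and -0.16 ± 0.14 (adjusted p = 0.57). Of 5 markers of oligodendrocyte precursors 1 was called, and no monocyte marker of 5 passed the filter, with sums of at most 3.08 CPM.

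**Figure D5:**
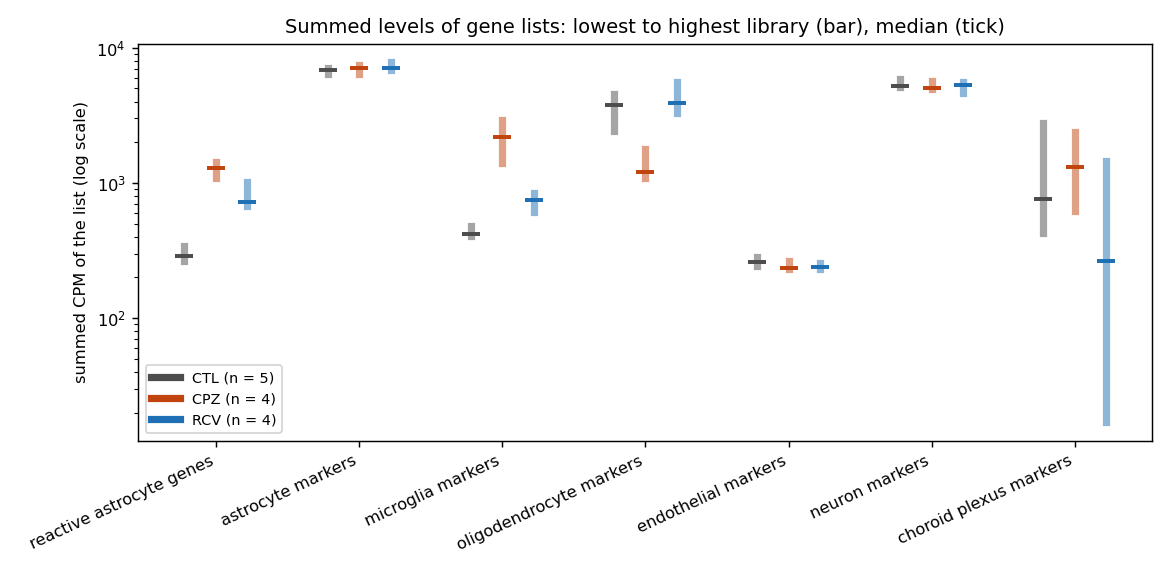
Summed CPM (log scale) of the 10 reactive astrocyte genes and of marker lists in CTL (n = 5), CPZ (n = 4) and RCV (n = 4); bars run from the lowest to the highest library and ticks mark the median. The reactive sums reach medians of 290, 1287 and 729 and mainly follow Gfap, which averages 165, 890 and 576. The microglia sums rise and fall too (418, 2186 and 748). The astrocyte sums keep similar medians (6898, 7109 and 7047), with Slc1a2 alone averaging 2705, 2820 and 2928.

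For members whose log2-CPM averaged 1 or more, the other tested genes with the most similar course over the 13 libraries were sought. These had the smallest root mean square (RMS) difference between log2-CPM deviations from the CTL mean. Members were left out of this search, so 1 member can lie nearer to another than the genes named. For Gfap these were C4b, a complement component (RMS 0.21), and Lag3, an inhibitory immune receptor (0.36). The same 2 genes were nearest to Serpina3n, at 0.35 and 0.42. C4b averaged 30.0, 139 and 115 CPM in CTL, CPZ and RCV. For Vim they were Pik3cg, a lipid kinase subunit of leukocytes (0.17), and Ctsh, a lysosomal protease (0.20). For Osmr they were Irf8, a transcription factor of microglia (0.28), and Arhgap9 (0.29). For Cd44 they were Runx1, a transcription factor (0.22), and Havcr2, a receptor of microglia (0.25). Nes was nearest to Rbl1, a cell cycle regulator of the retinoblastoma family (0.13), and Scpep1 (0.19). Synm was nearest to Lss, an enzyme of cholesterol synthesis (0.10), which averaged 48.9, 36.9 and 47.8 CPM, and Wscd1 (0.10). Lcn2, Steap4 and Timp1 were too scarce for this comparison.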

How the data were processed

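RNA of 1 hemisphere per brain was made into libraries with the Kapa mRNA HyperPrep kit and sequenced as paired 50-base reads. The submitters' processing notes name STAR, RSEM and build mm10, without versions, and the study's methods name the RNASequest pipeline. The authors deposited estimated counts per gene and TPM per gene, the latter already divided by transcript length and scaled to the library by the authors. Between 3.9 and 4.8% of the deposited estimated counts per library were not whole, and they were rounded. The 92 spike-in rows held no counts and were left out.

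Groups came from the treatment labels. RCV sample titles carry the prefix Veh rather than a word for recovery, so that group rests on the treatment label alone. edgeR 4.0.16 (R 4.3.3; filterByExpr, TMM, robust quasi-likelihood F test) was fitted once to all 13 libraries, with Benjamini-Hochberg adjustment over 14985 genes and a threshold of 0.05 ("called"). SE is the absolute log2 fold change over the square root of F. DESeq2 1.42.0, limma 3.58.1 (voom, or on log2(TPM + 1) and log2(TPM + 0.1)), other scalings and filters, a replicate block and leaving out each library were alternatives. The code was tested on simulated data. Gene positions came from GENCODE M21. The libraries of a group differed from each other beyond sampling noise.

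The 10 genes and the other lists were chosen with earlier results of these data known. Named genes were the 10, all tested genes of lists with at most 5 of them, and all genes of the interleukin-6 family lists. From other lists they were the called genes with the largest and smallest difference in CPZ against CTL. The marker lists of microglia, oligodendrocytes and oligodendrocyte precursors were exceptions, of which P2ry12 alone was named. Msn, Rdx, Adamts4, H2-D1, Ggta1, Cd14 and C3 were named after their values were seen. An item withheld from this text is not reported here. Counting intervals are 95% and cover counting error only.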

Additional observations from a re-analysis of the deposited data

How the results depend on the processing

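Of the reactive astrocyte genes held by each fit, 6 to 8 were called higher and 1 lower in CPZ against CTL under every alternative run. The 8 arose in fits that held Timp1, and the 6 with at least 10 counts in every library, a filter that removed Lcn2. In RCV against CTL the number higher was 2 except by DESeq2 (5). Timp1 entered the count where the filter allowed it, at a log2 fold change of 2.53 in CPZ against CTL without a filter (adjusted p = 0.0023). It was not called in CPZ against RCV in any of the fits that held it (adjusted p = 0.30 with edgeR without a filter, and 0.27, 0.59 and 0.405 with limma on log2(TPM + 1), log2(TPM + 0.1) and log2(TPM + 1) without a filter). In CPZ against RCV, 5 to 7 genes were higher, and the 1 lower gene (Synm) was lost, giving 0, with limma on log2(TPM + 1), log2(TPM + 0.1) or log2(TPM + 1) without a filter, with only the 2 groups compared and with the replicate block, and 0 to 1 when 1 library was left out; genes lower with no overlap were 0 to 1. Of 14985 genes, 1522 were called in CPZ against CTL (993 with limma on log2(TPM + 1) without a filter; 1078 to 1451 with 1 library left out). In CPZ against RCV there were 1050 (584, 503 and 477 with limma on log2(TPM + 1), log2(TPM + 0.1) and log2(TPM + 1) without a filter; 632 to 1092 with 1 library left out, the lowest with CPZ replicate 1 removed, then 693 with CPZ replicate 2 removed). In RCV against CTL there were 56 (131 by DESeq2, 16 by limma-voom, 20 with at least 10 counts in every library, 16 with limma on log2(TPM + 1) without a filter; 21 to 54 with 1 library left out, the lowest without RCV replicate 2). The Synm difference in RCV against CTL ran from -0.089 to 0.069 with 1 library left out and was positive, at 0.004, 0.011, 0.005 and 0.069, without CTL replicate 1 or 3 or RCV replicate 1 or 4. The causes were not tested.

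The replicate numbers of the labels did not pair the samples: deviations of same-numbered libraries correlated at -0.20 to 0.14 over 12 pairs. With the replicate block, 1172 genes were called between CPZ and CTL, 42 between RCV and CTL and 755 between CPZ and RCV, and Gfap in CPZ against RCV was at 0.64 (adjusted p = 0.078). Gfap also lost that call without a filter on counts (0.66, adjusted p = 0.072), and Lcn2 lost it with only the 2 groups compared (3.13, adjusted p = 0.071). No library held more than 17 counts of Timp1 or 19 of Steap4, and no CTL library more than 2 of Lcn2.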
